A study of Mus musculus with 6 samples.

Results

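The genes described here mark the first macrophages of the embryonic brain: Mrc1, Csf1r, Aif1, C1qb, Ctss, Tyrobp, Fcer1g, Lyz2, Ptprc and Pf4. They were taken by gene symbol from the probe annotation of the arrays, and all 10 were found, among 12393 genes measured. Together they are read by 14 of 20380 probe sets that name 1 gene, where a probe set is a group of short probes on an Affymetrix array that yields 1 signal for a transcript. The main value of each gene is its probe set of highest mean signal over all arrays.

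The study compared whole brains of mouse embryos at stage E11.5, about the middle of gestation, on 6 arrays with 1 brain on each. The diabetic group held 3 malformed brains from Swiss albino mothers made diabetic with streptozotocin (STZ), which destroys the beta cells of the pancreas. The control group held 3 brains from normal mothers of the same strain. The kind of malformation, the litters and the glucose levels are not given in the labels. The effects of maternal diabetes and of malformation thus cannot be told apart. The p-values measure only the spread between these arrays, in which brains and array runs are mixed.

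Replicates 1 and 2 of both groups were run on MOE430A chips and make up the first value table, and replicate 3 of both groups was run on Mouse430A_2 chips and makes up the second. The tables also differ in scanner and fluidics protocol, so every diabetic value below is set against controls of its own table. The second table has 1 array per group and no replicate of its own. A fit that estimates a weight for each array gave 1.95, 0.641 and 0.722 for diabetic replicates 1 to 3. It gave 0.736, 2.08 and 0.722 for control replicates 1 to 3. In the first table diabetic replicate 2 and control replicate 1 had the lower weights of their groups. A low weight marks larger departures from the fit over both tables, not a distance within the first table.

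Macrophages reach the embryonic brain from the yolk sac before definitive blood formation begins, and those in the brain tissue become microglia. They depend on the receptor Csf1r and on the transcription factor PU.1, the product of Spi1. They clear dying cells, for which they use scavenger and complement receptors, lysosomal proteases and adaptor proteins that carry an activation motif called ITAM. In a whole brain the few macrophages are mixed with neural, vascular, blood and connective tissue cells, so fewer macrophages and less RNA per macrophage cannot be told apart in these data.

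PU.1 binds purine-rich sequence around a GGAA core, and the upstream sequence of these genes was read for it. The windows of 3 genes are printed because their genes carry the contrast described below: Mrc1 was lower on the diabetic arrays of both tables, and Ctss and C1qb were lower in the first table only. Each is the stretch of 250 bases before the annotated start in RefSeq, build GRCm38.p6, on the gene's own strand, at chr2:14229164-14229413 (+ strand) for Mrc1, chr3:95526536-95526785 (+ strand) for Ctss and chr4:136886201-136886450 (- strand) for C1qb. Capitals mark GAGGAA or GGAAGT on the printed strand, or TTCCTC or ACTTCC, which are the same motifs on the other strand.
Mrc1: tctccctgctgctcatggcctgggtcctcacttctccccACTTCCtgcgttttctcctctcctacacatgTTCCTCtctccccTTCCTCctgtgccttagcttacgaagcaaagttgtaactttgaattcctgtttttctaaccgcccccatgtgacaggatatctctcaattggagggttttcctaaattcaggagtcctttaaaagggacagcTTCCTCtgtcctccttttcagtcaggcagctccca
Ctss: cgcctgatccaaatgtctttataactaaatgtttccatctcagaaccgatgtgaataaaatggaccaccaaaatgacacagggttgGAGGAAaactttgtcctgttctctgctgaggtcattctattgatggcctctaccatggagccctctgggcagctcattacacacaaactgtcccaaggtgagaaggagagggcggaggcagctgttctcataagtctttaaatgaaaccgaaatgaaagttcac
C1qb: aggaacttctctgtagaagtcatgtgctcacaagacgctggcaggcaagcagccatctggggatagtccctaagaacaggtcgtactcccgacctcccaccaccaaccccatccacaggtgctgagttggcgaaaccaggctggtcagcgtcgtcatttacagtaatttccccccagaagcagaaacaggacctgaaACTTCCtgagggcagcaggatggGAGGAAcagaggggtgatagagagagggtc

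The Mrc1 window held 4 matches, all on the opposite strand, the Ctss window 1 and the C1qb window 2. Windows of 8 of the genes were read. Csf1r was left out by a filter on its chromosome, which was not applied to the windows of all genes. Tyrobp had no window. These 8 genes had 9 windows. GAGGAA stood in 6 of the 9, 1 window each of Aif1, C1qb, Ctss, Mrc1, Pf4 and Ptprc, against 23.3% of 32851 windows of all genes. GGAAGT stood in 6 of the 9 windows, which belong to 5 of the 8 genes (C1qb, Lyz2, Mrc1, Pf4 and Ptprc), against 19.7% of all windows. The joined form GAGGAAGT, which contains both, stood in 1 of the 9 windows, a window of Pf4, against 2.44% of all windows. These are matches of letters and no binding was measured.

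In the first table the diabetic brains had less signal for most of these genes, and in the second table the diabetic brain had more. The log2 change was below 0 for 10 of 10 genes in the first table, where it was so for 50% of all genes tested, and above 0 for 7 of 10 in the second, where it was so for 53.6%. Both diabetic arrays lay below both control arrays of the first table for 7 of 10 genes (Mrc1, Csf1r, Aif1, C1qb, Ctss, Fcer1g and Pf4), against 21.9% of all genes tested. For 6 of these, all but Mrc1, the diabetic array of the second table lay above its control, an order seen for 11.2% of genes tested. Mrc1 was the 1 gene of 10 whose diabetic arrays lay below the controls in each table, as did 10.7% of genes tested. Over all 12393 genes measured, which include those of low signal, these shares were 19.3% for the first order, 10.2% for the second and 9.07% for that of Mrc1.

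**Figure D1:**
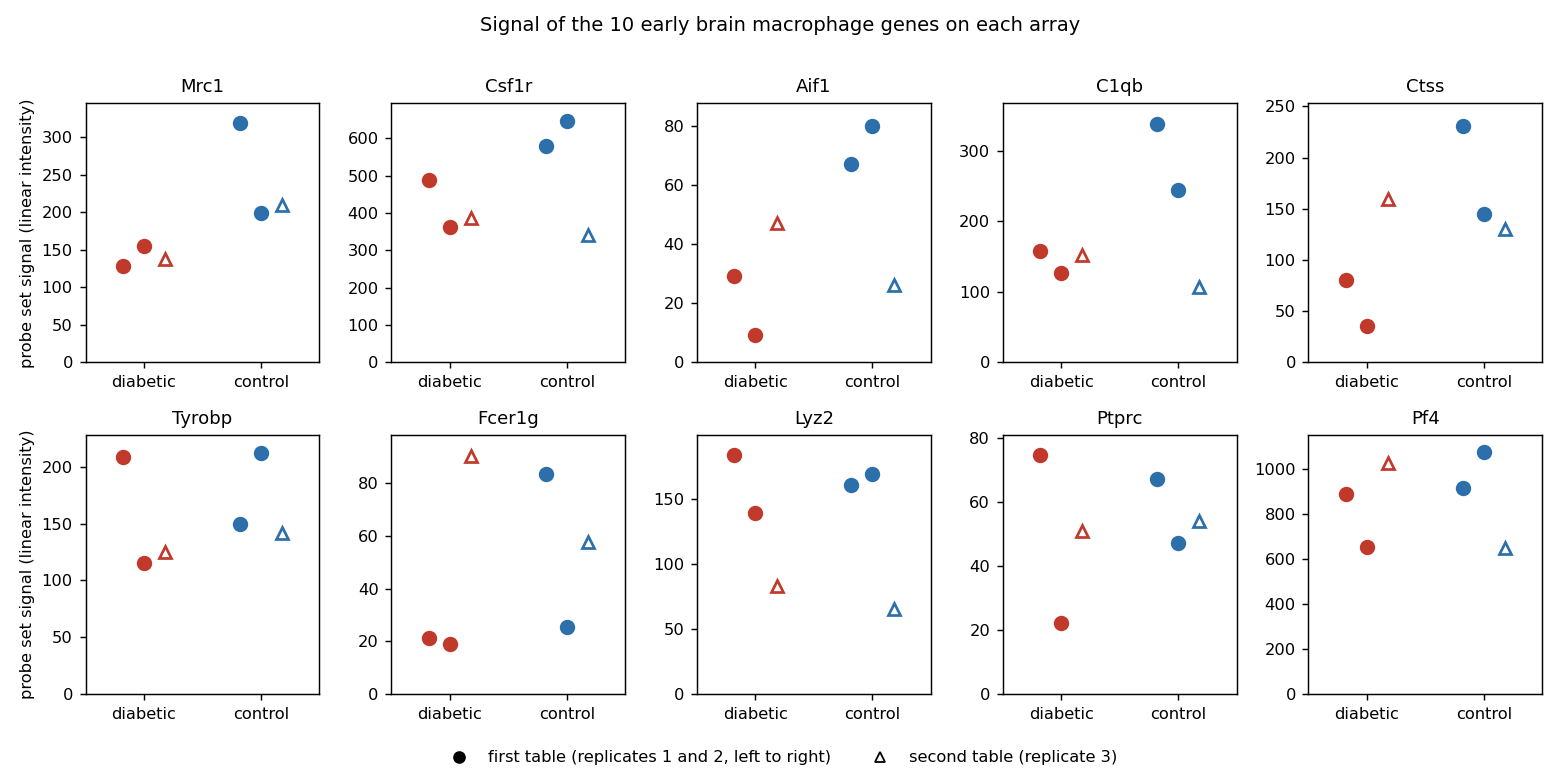
Signal (linear intensity, vertical axis from 0) of the main probe set of each of the 10 genes on 3 diabetic (red, left) and 3 control (blue, right) arrays, with filled circles for replicates 1 and 2 in the first table and open triangles for replicate 3 in the second. Circles compare with circles and triangles with triangles: for Mrc1 the diabetic points lie lower in both shapes, and for Csf1r, Aif1, C1qb, Ctss, Fcer1g and Pf4 the circles are lower and the triangle is higher in the diabetic group.

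Across both tables, none of these differences passed. The values were fitted with limma on log2(signal + 32), with the table as a block and Benjamini-Hochberg adjustment over the 8632 genes whose signal averaged 100 or more. On this scale a fold change of a gene with low signal is understated. Of the 10 genes, 7 had that signal and were tested, and Aif1, Fcer1g and Ptprc had less. Limma called 0 of the 7 and 0 of all 8632 genes (0%), with a smallest adjusted p of 0.526. At an unadjusted p under 0.05, 2 of the 7, Mrc1 and Ctss, were on the lower side, where 3.87% of all genes tested were, and 0 of the 7 were on the higher side, where 3.72% were. Over the whole table that was 334 lower and 321 higher genes. The log2 change over both tables was below 0 for 9 of the 10 genes, against 47.8% of genes tested, with a median of -0.28, against 0.012 over all genes tested. Without diabetic replicate 2 the median was -0.13 and 6 of 10 were below 0.

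**Figure D2:**
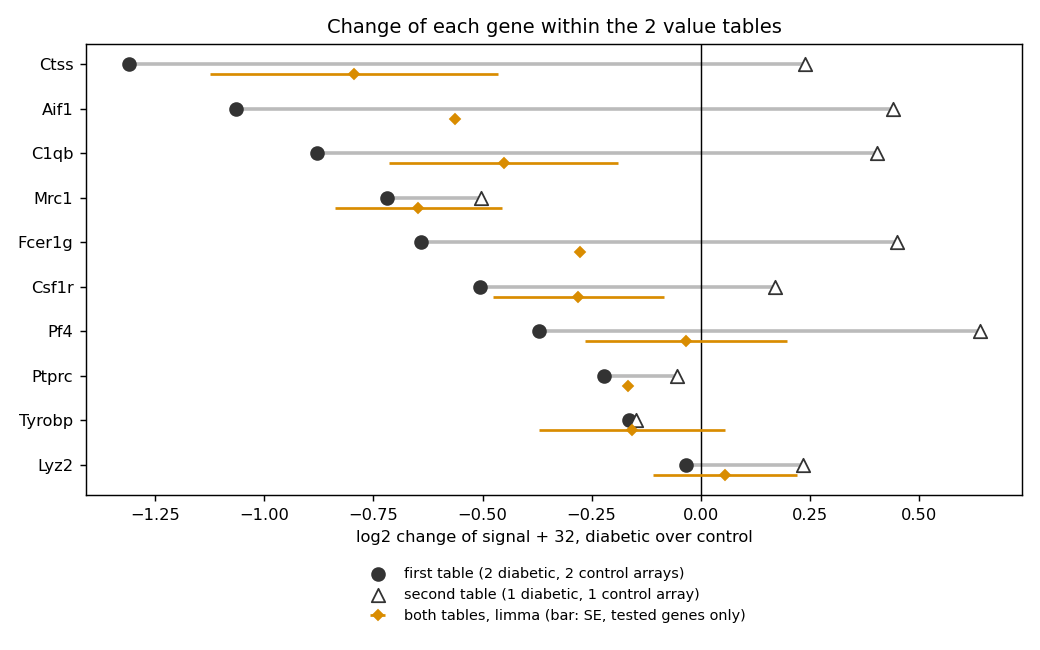
Log2 change of signal + 32, diabetic over control (horizontal axis), for each of the 10 genes, as filled circles in the first table, open triangles in the second and diamonds over both, with bars for the SE of the 7 genes tested. All 10 circles lie left of 0 and 7 triangles lie right of it; Mrc1, Ptprc and Tyrobp have both on the left.

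Among the surface receptors, Mrc1, the mannose receptor CD206, takes up glycoproteins and marks macrophages of the meninges and the perivascular space. Its signals were 129, 155 and 138 on diabetic replicates 1 to 3, against 320, 200 and 210 on control replicates 1 to 3. The diabetic values lay below the controls in each table, an order seen for 10.7% of genes tested. The log2 change was -0.65 ± 0.19 (SE, n = 3 per group) with a limma adjusted p of 0.566, made of -0.72 and -0.50 in the first and second table. Leaving out each array in turn gave -0.80 to -0.45.

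Csf1r encodes the receptor for the growth factors Csf1 and Il34, on which survival of these cells depends. It is read by 3 probe sets. The one of highest mean signal, 1419872_at, gave 489, 362 and 387 on diabetic replicates 1 to 3, against 579, 645 and 340 on control replicates 1 to 3. The diabetic values of the first table lay below their controls and that of the second lay above. Its log2 change was -0.28 ± 0.20 (SE, n = 3 per group), with a limma adjusted p of 0.730, made of -0.51 and 0.17 in the first and second table, and it was -0.10 without diabetic replicate 2.

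The other Csf1r probe sets did not show that separation in the first table. Probe set 1423593_a_at gave 226, 253 and 162 on diabetic replicates 1 to 3, against 287, 247 and 113 on control replicates 1 to 3. Probe set 1419873_s_at gave 185, 118 and 176 on diabetic replicates 1 to 3, against 130, 196 and 134 on control replicates 1 to 3. In both, diabetic and control arrays overlapped in the first table, with log2 changes of -0.14 and -0.090, and the diabetic array was higher in the second, with 0.42 and 0.32. Over both tables they had 0.049 ± 0.18 and 0.048 ± 0.22 (SE, n = 3 per group), with limma adjusted p values of 0.955 and 0.965 over all probe sets of sufficient signal. The sign over both tables thus depended on the probe set, whereas the order of the second table was the same in all 3.

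Of the ligands, Csf1 had signals of 214, 251 and 60.3 on diabetic replicates 1 to 3 and 151, 280 and 13.8 on control replicates 1 to 3. Its log2 change was 0.43 ± 0.25 (SE, n = 3 per group; limma adjusted p of 0.690), and -0.079 with the probe set of highest mean log2 signal, so its direction depended on the probe set. Il34 had 51.0, 62.8 and 6.14 on diabetic replicates and 79.5, 67.9 and 29.6 on control replicates 1 to 3, too low to be tested, with a log2 change of -0.40. The transcription factor gene Spi1 had 97.4, 112 and 75.0 on diabetic and 119, 104 and 50.6 on control replicates 1 to 3, also under the limit, with overlap in the first table and a log2 change of 0.080 over both. Over the list of Csf1r ligands and myeloid transcription factors, 5 of 12 measured genes were tested, 2 below and 3 above 0, with a median of 0.16, or 0.033 without diabetic replicate 2, and 0 passed in limma.

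C1qb encodes a chain of C1q, which opens the classical complement cascade and tags material for uptake. Its main probe set gave 158, 127 and 152 on diabetic replicates 1 to 3, against 338, 244 and 107 on control replicates 1 to 3. The first table separated the groups with the diabetic brains low, and the second put the diabetic brain above its control. The log2 change was -0.45 ± 0.26 (SE, n = 3 per group; limma adjusted p of 0.696), -0.88 and 0.40 in the first and second table. It was -0.21 without control replicate 1, the array of highest signal, and -0.26 without diabetic replicate 2.

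The other C1qb probe sets had the same order. Probe set 1434366_x_at gave 121, 79.2 and 140 on diabetic replicates 1 to 3, against 235, 351 and 76.6 on control replicates 1 to 3, and the weaker 1437726_x_at gave 35.6, 32.3 and 88.9 on diabetic replicates 1 to 3, against 65.6, 61.2 and 74.7 on control replicates 1 to 3. The suffix x marks probe sets whose probes may also bind other transcripts. Their log2 changes were -1.29 and -0.53 in the first table, and 0.66 and 0.18 for the second. All 3 C1qb probe sets thus had non-overlapping groups in the first table.

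**Figure D3:**
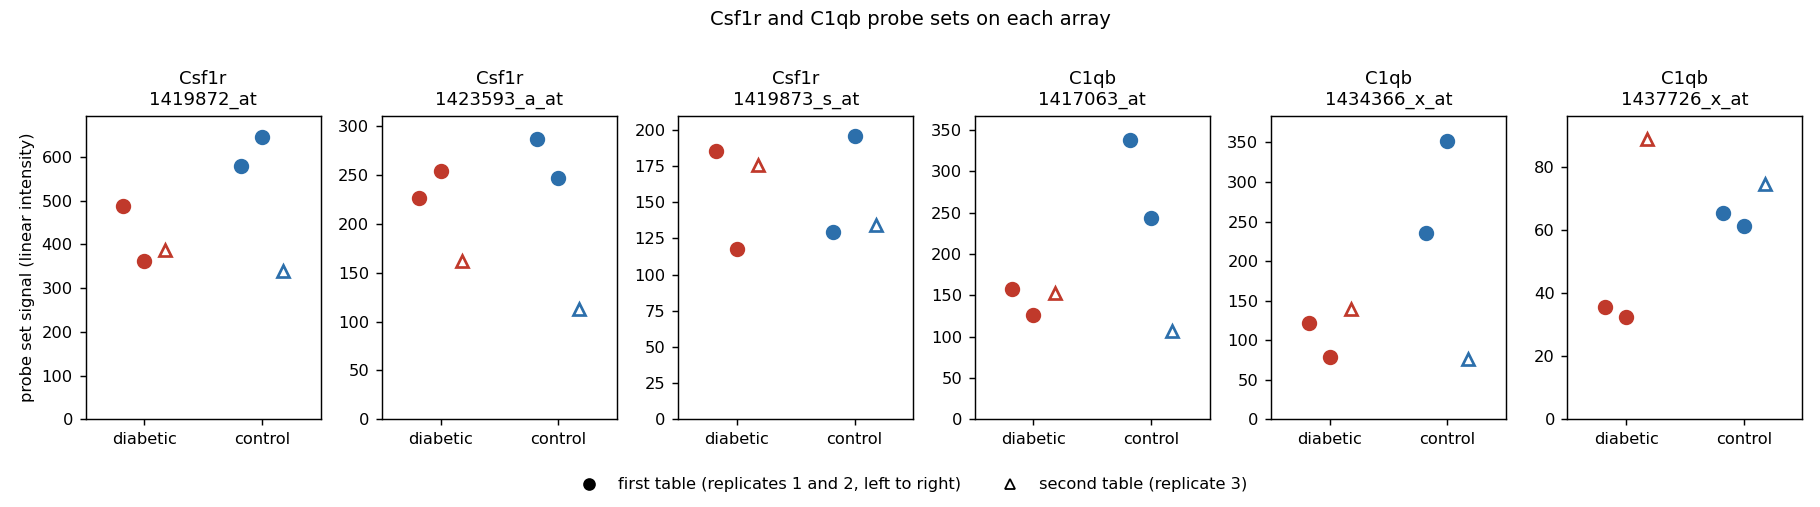
Signal (linear intensity, vertical axis from 0) of the 3 probe sets of Csf1r and the 3 of C1qb on diabetic (red, left) and control (blue, right) arrays, with circles for the first table and triangles for the second. The circles are separated for all C1qb probe sets and for 1 of the 3 Csf1r probe sets, 1419872_at, and the diabetic triangle is the higher one in all 6 panels.

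The other chains of C1q were not tested because of low signal. C1qc gave 112, 5.52 and 80.6 on diabetic replicates 1 to 3, against 129, 147 and 66.5 on control replicates 1 to 3, with log2 changes of -1.21 and 0.19 in the first and second table. C1qa gave 11.4, 20.5 and 112 on diabetic replicates 1 to 3, against 26.0, 23.2 and 67.8 on control replicates 1 to 3, with -0.24 and 0.53. Both chains had C1qb's order, diabetic arrays below in the first table and above in the second. For C1qa the gap in the first table was narrow, 20.5 against 23.2, and its change over both tables was 0.014. The value of C1qc rested on diabetic replicate 2, without which its change over both tables was -0.052, against -0.74 with it. In the list of complement and phagocyte receptors, 5 of 15 measured genes were tested, 4 below and 1 above 0, with a median of -0.038, or -0.078 without diabetic replicate 2. None passed in limma, and C3ar1, the receptor of a complement fragment, had -0.46 ± 0.20 (SE, n = 3 per group; adjusted p of 0.655). Its signals were 158, 118 and 6.88 on diabetic replicates 1 to 3, against 150.1, 173 and 45.8 on control replicates 1 to 3, the lowest being the diabetic value of the second table. The log2 change was -0.19 without diabetic replicate 3.

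Ctss encodes cathepsin S, a lysosomal protease of phagocytes. Its signals were 80.4, 35.5 and 159 on diabetic replicates 1 to 3, against 231, 145 and 130 on control replicates 1 to 3. The low values belonged to the diabetic brains of the first table, and the diabetic brain of the second was above its control. The log2 change was -0.79 ± 0.33 (SE, n = 3 per group; limma adjusted p of 0.648), -1.31 in the first table, 0.24 in the second and -0.44 without diabetic replicate 2.

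Lyz2, which encodes the lysozyme of macrophages and granulocytes, gave 184, 140 and 82.9 on diabetic replicates 1 to 3, against 161, 169 and 65.7 on control replicates 1 to 3. The groups overlapped in the first table. It was the 1 gene of the 10 with a positive value over both tables, 0.056 ± 0.16 (SE, n = 3 per group; limma adjusted p of 0.936), with -0.033 in the first, and 0.18 without diabetic replicate 2. The mouse genome holds a near copy, Lyz1, and whether its transcript adds to this signal was not tested.

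The listed lysosomal proteases and partners had medians with the signs of Ctss in both tables, -0.11 in the first and 0.20 in the second. All 14 measured proteases and partners were tested, and 9 were below 0 in the first table and above 0 in the second, as were 26% of all genes tested. The order of Ctss, diabetic below without overlap and then above, was seen for 4 of the 14, against 11.2% of genes tested. Over both tables together, 7 were below and 7 above 0, with a median of -0.0059 and 0 passed in limma, and with a median of 0.0060 without diabetic replicate 2. Ctsb, the protease cathepsin B, gave 2379, 1554 and 1824 on diabetic replicates 1 to 3, against 2526, 2380 and 1105 on control replicates 1 to 3. It had the order of Ctss, with -0.35 in the first and 0.71 in the second table. Ctsz, the protease cathepsin Z, had 1087, 1182 and 2092 on diabetic replicates 1 to 3, against 1285, 1033 and 773 on control replicates 1 to 3. Its groups overlapped in the first table (-0.024), and it had 1.40 in the second.

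The ITAM adaptors are Tyrobp, the DAP12 protein that pairs with Trem2, and Fcer1g, the common gamma chain of Fc receptors. Tyrobp gave 209, 115 and 125 on diabetic replicates 1 to 3, against 150, 213 and 142 on control replicates 1 to 3. Its groups overlapped in the first table, and its log2 changes of -0.16 and -0.15 in the first and second table were alike in sign. Over both it had -0.16 ± 0.21 (SE, n = 3 per group; limma adjusted p of 0.856), and 0.047 without diabetic replicate 2.

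Fcer1g gave 21.3, 19.1 and 90.2 on diabetic replicates 1 to 3, against 83.3, 25.4 and 57.5 on control replicates 1 to 3. The first table's gap was narrow on the side of control replicate 2. Log2 changes were -0.64 in the first table, 0.45 in the second and -0.28 over both, turning to 0.11 without control replicate 1. Trem2 gave 47.0, 120 and 57.4 on diabetic replicates 1 to 3, against 20.1, 144 and 46.2 on control replicates 1 to 3, which overlapped in the first table. Of 15 measured genes of ITAM signalling, 6 were tested, 3 below and 3 above 0, with a median of 0.025 and 0 passed in limma. Without diabetic replicate 2 the median was 0.13 and 1 of the 6 was below 0. Plcg2, a phospholipase of this pathway, had 0.44 ± 0.21 (SE, n = 3 per group; adjusted p of 0.662), and 0.13 without diabetic replicate 3, which is its value in the first table alone. The kinase gene Syk had -0.063 ± 0.17 (adjusted p of 0.930), and 0.044 without diabetic replicate 2.

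Aif1 encodes Iba1, an actin-bundling protein used as a microglial marker. Its signals were 29.4, 9.38 and 47.2 on diabetic replicates 1 to 3, against 67.2, 80.2 and 26.4 on control replicates 1 to 3. It followed Ctss and C1qb, low on both diabetic arrays of the first table and above the control in the second. The log2 changes were -1.07 and 0.44, and -0.56 over both tables. The value over both tables was -0.26 without diabetic replicate 2, and -1.11 with a pseudocount of 1 in place of 32. In the limma fit without a limit on signal, over all 12393 genes, that value had an SE of 0.32 and an adjusted p of 0.761.

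Ptprc encodes CD45, the phosphatase on the surface of all white blood cells. Its signals were 74.7, 22.3 and 50.9 on diabetic replicates 1 to 3, against 67.3, 47.2 and 54.2 on control replicates 1 to 3. Diabetic replicate 1 was the highest and diabetic replicate 2 the lowest of the first table. The log2 change over both tables was -0.17, and 0.13 without diabetic replicate 2. Of 15 other measured genes shared by white blood cells, 7 were tested, 2 below and 5 above 0, with a median of 0.12, or 0.065 without diabetic replicate 2, and 0 passed in limma. Laptm5, a lysosomal membrane protein of these cells, had -0.17 ± 0.17 (SE, n = 3 per group; adjusted p of 0.810), and -0.067 without diabetic replicate 2.

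Pf4 encodes a chemokine of platelets that embryonic macrophages also express. Its signals were 889, 652 and 1028 on diabetic replicates 1 to 3, against 918, 1077 and 648 on control replicates 1 to 3. Diabetic replicate 1 lay just below control replicate 1, and the largest gaps were those of diabetic replicate 2 and of the second table. Log2 changes were -0.37 and 0.64 in the first and second table, which left -0.034 ± 0.23 over both (SE, n = 3 per group; limma adjusted p of 0.980), and 0.19 without diabetic replicate 2.

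Platelet and megakaryocyte markers had medians with the signs of Pf4 in both tables. Of 9 measured, 6 were tested, with medians of -0.12 and 0.63 in the first and second table. Of the 6, 3 were below and then above 0, against 26% of all genes tested. Another 2 were above 0 in both tables, and 1 was above and then below. Ppbp, another platelet chemokine, had -0.82 and 1.36, and Itga2b, a platelet integrin, 0.14 and 0.76. Their summed signal over the 9 genes was 1916, 1602 and 1572 on diabetic replicates 1 to 3, against 2151, 2090 and 870 on control replicates 1 to 3. Their part in the Pf4 values was not tested.

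Whether the change differs between the tables was tested as an interaction of table and group in limma. The second table has 1 array per group and is fitted exactly, so SE and p rest on the spread within the first table. The second table minus the first was 1.28 ± 0.37 for C1qb (SE, 2 residual degrees of freedom), 1.55 ± 0.52 for Ctss, 1.01 ± 0.37 for Pf4 and 0.68 ± 0.36 for Csf1r. Unadjusted p was 0.0102 for C1qb, 0.0187 for Ctss and 0.0283 for Pf4, so 3 of 7 tested genes were under 0.05 on that side, against 3.99% of all genes tested. The difference was small for Mrc1 (0.21 ± 0.42), Lyz2 (0.27 ± 0.34) and Tyrobp (0.016 ± 0.48). After adjustment 0 of 8632 genes (0%) passed in limma, the smallest adjusted p being 0.470, and that of C1qb was 0.625.

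Diabetic replicate 2 was the lowest of the 4 arrays of the first table for 9 of the 10 genes, against 31.7% of genes tested, and Mrc1 was the exception. The median log2 difference from the control mean of the same table was -0.46 on diabetic replicate 1, -0.69 on diabetic replicate 2 and 0.24 on diabetic replicate 3. On diabetic replicate 1, 7 of 10 genes lay below that mean, the exceptions being Tyrobp, Lyz2 and Ptprc.

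The remaining macrophage markers lay on both sides of 0. Of 24 measured, 10 were tested, 4 below and 6 above 0, with a median of 0.036 and 0 passed in limma. Without diabetic replicate 2 the median was 0.11 and 2 of the 10 were below 0. Cx3cr1, the fractalkine receptor of microglia, gave 179, 69.8 and 120 on diabetic replicates 1 to 3, against 143, 153 and 138 on control replicates 1 to 3, with -0.25 ± 0.25 over both tables (SE, n = 3 per group) and 0.064 without diabetic replicate 2. Adgre1, which encodes the macrophage antigen F4/80, gave 249, 174 and 90.0 on diabetic replicates 1 to 3, against 202, 168 and 119 on control replicates 1 to 3, with 0.00071 ± 0.19. Mertk, a receptor for dying cells, had -0.23 ± 0.15, Fcgr2b, an inhibitory Fc receptor, 0.28 ± 0.20, and Dab2, an endocytic adaptor, -0.21 ± 0.17. Limma adjusted p over these 5 genes ran from 0.727 to 0.999.

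Genes that mark microglia at later stages were few. Of 6 measured, 4 were tested, 3 below and 1 above 0, with a median of -0.24 and 0 passed in limma. Tmem119, which bone-forming and mesenchymal cells also express, gave 505, 502 and 294 on diabetic replicates 1 to 3, against 785, 732 and 377 on control replicates 1 to 3, below in both tables, with -0.48 ± 0.15 (SE, n = 3 per group; adjusted p of 0.587). Olfml3 had -0.36 ± 0.19, and Sall1, a transcription factor also of neural progenitors, 0.46 ± 0.27. P2ry12 and Gpr34, receptors that define mature microglia, had signals of at most 92.1 and 31.2 on any array.

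**Figure D4:**
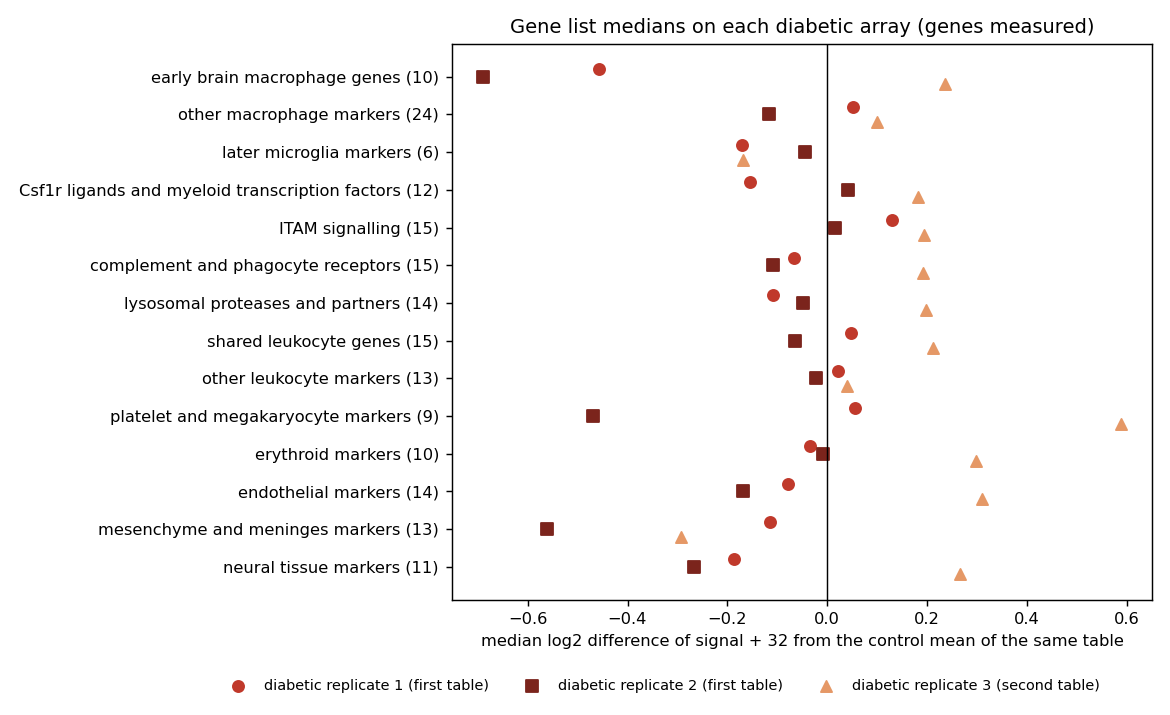
Median log2 difference of signal + 32 from the control mean of the same table (horizontal axis) for 14 gene lists on diabetic replicates 1 (circle), 2 (square) and 3 (triangle), over the measured genes of each list, whose number is in brackets. For the early brain macrophage genes diabetic replicates 1 and 2 lie at -0.46 and -0.69 and diabetic replicate 3 at 0.24. Platelet and megakaryocyte markers are at 0.056, -0.47 and 0.59 on diabetic replicates 1 to 3. Mesenchyme and meninges markers lie below 0 on all 3.

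Markers of other cells in a dissected brain had medians that differed in sign between the tables as well. The 10 tested neural markers had medians of -0.39 and 0.29 in the first and second table, and 6 of them had the order of C1qb and Ctss, diabetic below without overlap and then above, against 11.2% of all genes tested. By sign alone, 6 of the 10 were below and then above 0, against 26% of all genes tested. The reverse held for 2, while 1 was below 0 in both tables and 1 above. Dcx, a microtubule protein of young neurons, had -1.04 and 0.27. Fabp7 had -0.88 and -0.12, below 0 in both tables, and Msi1 had 1.16 and -0.12. The summed signal of the 11 measured neural markers was 14056, 12099 and 20003 on diabetic replicates 1 to 3. On control replicates 1 to 3 it was 15036, 16108 and 17260. Endothelial markers had medians of -0.13 and 0.31 over 13 tested genes. Their sums were 4465, 4227 and 3910 on diabetic and 5117, 4601 and 3824 on control replicates 1 to 3. Erythroid markers had -0.090 and 0.39 over 9 tested genes. Their sums were 49991, 57757 and 53292 on diabetic and 43662, 52506 and 50754 on control replicates 1 to 3. The part of these cells in the values of the macrophage genes was not tested.

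Mesenchyme and meninges markers had medians below 0 in both tables, as Mrc1 had values below 0 in both. All 13 were tested and all 13 were below 0 over both tables, against 47.8% of all genes tested, and 0 passed in limma. Their medians were -0.31 in the first and -0.29 in the second table. Each table put the same 8 of the 13 below 0, against 23.9% of genes tested. Of the 13, 5 changed sign between the tables: Pdgfra, Dcn and Lum were below 0 in the first and above 0 in the second, and Twist1 and Foxc2 the reverse. Dcn and Lum, matrix proteoglycans, had -0.61 and -0.66 in the first table and 0.41 and 0.65 in the second. Postn, a matrix protein, had -0.56 ± 0.19 and the transcription factor gene Foxd1 -0.63 ± 0.21 (SE, n = 3 per group; adjusted p of 0.609 for both). The summed signal was 14691, 14255 and 17916 on diabetic replicates 1 to 3, against 17329, 17752 and 21585 on control replicates 1 to 3. Their part in the Mrc1 values was not tested.

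Markers of granulocytes, mast cells and lymphocytes had low signals. Of 13 measured, 3 were tested, 2 below and 1 above 0, with 0 passed in limma. Mpo, the myeloperoxidase of granulocytes and their precursors, gave 332, 216 and 83.7 on diabetic replicates 1 to 3, against 122, 201 and 42.3 on control replicates 1 to 3. Its diabetic values were above the controls in both tables, with 0.66 ± 0.21 (SE, n = 3 per group; adjusted p of 0.609). The neutrophil gene S100a8 had a signal of at most 10.8 on any array. The summed signal of the 13 genes was 1068, 1022 and 322 on diabetic replicates 1 to 3, against 717, 1168 and 280 on control replicates 1 to 3.

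The genes tested whose values over the arrays were most like those of the 10 were no macrophage markers. Likeness was Pearson's r of the log2 values, centred within each table, with the mean of the 10 genes over the same 6 arrays. The nearest were Rtn1, a reticulon of neurons, Ift20, a protein of cilia, Tm2d1, Atp9b and Vps29, a subunit of the endosomal retromer, with r of 0.996 to 0.998. Rtn1 gave 367, 202 and 1082 on diabetic replicates 1 to 3, against 700, 553 and 905 on control replicates 1 to 3. Among the 8632 genes tested, with the 10 left out, 172 had an r above 0.95 over only 6 arrays. The reason was not tested. Within the 10, the value for each gene against the mean of the other 9 was highest for Ctss (0.984), C1qb (0.942), Aif1 (0.924) and Csf1r (0.918), and lowest for Tyrobp (0.379).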

How the data were processed

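The authors deposited linear probe set intensity values in 2 tables, 1 for each chip type, of 22690 probe sets each. They came from GCOS, per the submitters' processing notes. How it was set is not stated here. Chip type, scanner and fluidics protocol were read from run settings, text of other kinds than expression values, per the file headers. They give 6 distinct run days for 6 arrays, so a day could not serve as a block.

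Arrays were rescaled to a mean of 500 after trimming 2% at each end, a shift of at most 0.00908%, and converted to log2(signal + 32). Of 20380 probe sets with 1 gene, 20351 matched RefSeq identifiers, with 0 symbols changed. Groups came from the sample titles. The fit used limma 3.58.1 in R 4.3.3 (two-sided, threshold 0.05), table as a block, with 3 residual and 6.36 prior degrees of freedom, and was tested on simulated data. The median SE of a log2 change was 0.17, and the number of arrays limits precision. Alternatives were the pseudocount, signal limit, normalization, probe set choice, array weights, single tables, a replicate block and each array left out.

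The genes and lists were chosen with earlier results of these data known. Named genes were the 10, the 3 tested genes of smallest p in each other list, Spi1, Csf1, Il34, Cx3cr1, Adgre1, C1qa, C1qc, Trem2 and Syk, and the 5 most alike. Others named in the text (Ppbp, Gpr34, P2ry12, S100a8, Ctsb, Dcn, Lum, Pdgfra, Twist1, Foxc2) were chosen after their values were seen. Lists were other macrophage, later microglia, Csf1r ligand and transcription factor, ITAM, complement, lysosomal, shared and other leukocyte, platelet, erythroid, endothelial, mesenchymal and neural genes.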

Additional observations from a re-analysis of the deposited data

How the results depend on the processing

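Limma called 0 genes under each alternative that gives a test, with 416 to 846 genes at an unadjusted p under 0.05 as single arrays were left out. The median of the 10 macrophage genes was -0.57 to -0.13 and their number below 0 was 6 to 10 as single arrays were left out. In the second table alone, 1 array per group and no test, the median moved to 0.24 and the number to 3. Leaving out either replicate 3 equals the first table alone by construction. Replicate numbers showed no pairing of the brains in the first table, where deviations of same-numbered arrays correlated at -0.013 across genes. A replicate block gives the same log2 changes as the table block by construction, since each number has 1 array per group. Its median of -0.28 and its 9 of 10 genes below 0 are thus no check. With that block limma called 0 genes, and 633 had an unadjusted p under 0.05. Low signals depend on the pseudocount: with 1 in place of 32 Fcer1g had -0.56, Ptprc -0.33 and C3ar1 -1.01. The deposited values carry no detection call.

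Of the 61 genes chosen by the naming rule, these turned sign, and the cause was not tested. Genes named in the text after their values were seen were not followed under the alternatives. In the second table alone log2 changes were 0.17 for Csf1r, 0.44 for Aif1, 0.40 for C1qb, 0.24 for Ctss, 0.45 for Fcer1g, 0.64 for Pf4, -0.00087 for Sall1, -0.073 for Treml1, 0.27 for Dcx, -0.12 for Msi1, -0.30 for Adgre1, 0.19 for C1qc, 0.25 for Rtn1, 0.27 for Ift20, 0.094 for Tm2d1, 0.14 for Atp9b and 0.12 for Vps29. In the first table alone they were -0.033 for Lyz2, -0.0095 for Inpp5d, 0.0085 for Pros1, -0.024 for Ctsz, 0.085 for Ngp, -0.067 for Spi1 and -0.24 for C1qa. With array weights they were 0.070 for Ptprc, -0.058 for Spn, -0.12 for C1qa, -0.33 for Trem2 and 0.043 for Syk. With a pseudocount of 1, Adgre1 had -0.015 and C1qa -0.19. Under quantile normalization Hbb-bh1 had -0.011, Adgre1 -0.016 and C1qa -0.049, and under median centring Adgre1 had -0.0033. With the mean over probe sets Csf1 had -0.11, Sox17 0.078 and Tm2d1 0.060, and with the probe set of highest mean log2 signal Csf1 had -0.079. As single arrays were left out, ranges that crossed 0 were -0.033 to 0.18 for Lyz2, -0.17 to 0.15 for Adgre1, -0.36 to 0.047 for Tyrobp, -0.43 to 0.13 for Ptprc, -0.37 to 0.19 for Pf4, -0.54 to 0.064 for Cx3cr1, -0.31 to 0.70 for Trem2, -0.19 to 0.044 for Syk, -0.0095 to 0.21 for Inpp5d, -0.086 to 0.0085 for Pros1, -0.024 to 0.67 for Ctsz, -0.44 to 0.085 for Ngp, -0.067 to 0.17 for Spi1, -0.24 to 0.17 for C1qa, -0.64 to 0.11 for Fcer1g and -0.023 to 0.33 for Treml1.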
